A study of Mus musculus with 6 samples.

Results

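The regions described here are stretches of open chromatin that held many accessibility summits in 1 peak interval of the S1 proximal tubule of the mouse kidney. They were chosen by the deposited peak lists themselves: the lines of a list that share chromosome, start and end were counted as summits of 1 interval, overlapping intervals (1 bp or more) were joined across the 6 lists, and a merged region was kept where at least 3 lists had an interval of 4 or more summits there. The rule kept 3233 of 126099 merged regions. The number of summits, and with it the width of the intervals, is therefore a property of the selection and is given as a description. The data came from ATAC-seq, which maps open chromatin with a transposase that inserts sequencing adapters into DNA not covered by nucleosomes, and there were 6 libraries. Each library was made from 3 proximal tubules dissected by hand from wild-type (WT) male C57BL/6 mice operated on at 7 weeks of age. The 3 libraries called UNx were made 24 h after unilateral nephrectomy, the removal of 1 kidney by surgical excision, and the 3 called Sham at the same time after sham surgery. Nothing in the labels ties a library to a separate mouse, so the spread between libraries of a group may be technical. In such bulk samples, fewer cells with an open region and less opening per cell cannot be told apart.

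The S1 segment is the first part of the proximal tubule after the glomerulus, and it reabsorbs most of the filtered glucose, amino acids, phosphate and bicarbonate. In chromatin, an active gene start lies in a stretch free of nucleosomes, and the nucleosomes after it are often held at regular distances, so accessible DNA there appears as a row of short linkers between nucleosomes. Promoters rich in the dinucleotide CpG are open in many tissues, whereas enhancers away from starts are open in a more tissue-restricted way. A peak caller that splits an interval at its local maxima reports 1 summit for each.

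The DNA at the strongest summit is shown for 6 regions, to set a promoter and an intronic region with many summits beside a region whose rank was higher after UNx and 3 promoters whose rank was lower. Capitals mark matches to the strings searched, and each is given 5′ to 3′ on the + strand of GRCm38, with the windows cut where an annotated exon begins. The Cebpa window lies at chr7:35119089-35119289, the Gpx3 window at chr11:54911873-54912073, the Ddit4 window at chr10:59943214-59943414, the Atp2a2 window at chr5:122502226-122502356, the Pspc1 window at chr14:56778319-56778503 and the Usp3 window at chr9:66593149-66593269.
Cebpa promoter: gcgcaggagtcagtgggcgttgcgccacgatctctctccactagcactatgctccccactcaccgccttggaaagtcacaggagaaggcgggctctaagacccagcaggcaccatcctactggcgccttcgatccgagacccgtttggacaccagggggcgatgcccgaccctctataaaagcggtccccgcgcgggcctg
Gpx3, away from a start: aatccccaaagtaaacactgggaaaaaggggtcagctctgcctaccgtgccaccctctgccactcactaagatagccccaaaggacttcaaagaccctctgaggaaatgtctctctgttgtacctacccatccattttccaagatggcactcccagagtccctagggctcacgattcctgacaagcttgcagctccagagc
Ddit4, away from a start: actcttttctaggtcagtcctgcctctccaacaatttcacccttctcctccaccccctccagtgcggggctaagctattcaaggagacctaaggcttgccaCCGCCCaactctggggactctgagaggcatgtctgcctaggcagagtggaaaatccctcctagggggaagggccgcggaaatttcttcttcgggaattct
Atp2a2 promoter: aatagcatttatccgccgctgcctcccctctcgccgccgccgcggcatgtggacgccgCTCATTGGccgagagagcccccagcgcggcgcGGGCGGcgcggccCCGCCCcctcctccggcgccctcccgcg
Pspc1 promoter: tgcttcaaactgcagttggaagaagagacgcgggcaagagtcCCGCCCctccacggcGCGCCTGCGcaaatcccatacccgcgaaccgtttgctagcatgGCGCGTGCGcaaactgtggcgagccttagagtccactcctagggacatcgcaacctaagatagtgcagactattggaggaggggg
Usp3 promoter: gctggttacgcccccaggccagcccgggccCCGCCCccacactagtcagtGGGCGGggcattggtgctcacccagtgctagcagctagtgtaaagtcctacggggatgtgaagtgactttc
The Atp2a2 window holds 2 matches to the GC box string GGGCGG, bound by SP and Krüppel-like factors, and 1 to the NF-Y string CCAATNAG. In the Pspc1 window 2 matches to the NRF1 string GCGCNTGCG and 1 GC box were found, and the Usp3 window holds 2 GC boxes. The Ddit4 window holds 1 GC box, and the Cebpa and Gpx3 windows hold no match to any of the 12 strings.

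The lists differed in length and in the number of summits they held. The 6 lists held 77355 to 100999 intervals, and 65.5% to 73.7% of these had 1 summit. Intervals of 4 or more summits numbered 3138, 1615 and 3959 in Sham 1, 2 and 3 and 3203, 5363 and 3991 in UNx 1, 2 and 3. Sham 2 was the shortest list and had the fewest such intervals. UNx 3 stood apart in another way, since its intervals of 4 or more summits had a median width of 1390 bp against 1175 to 1230 bp in the other 5 libraries. Its median −log10 q of 26.5, a value that rises with depth, was also the highest, and Sham 2 had the lowest with 12.1. The read depth itself is unknown because the lists hold no counts.

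All 3233 regions were present in every list, with an interval of 4 or more summits in 3 lists for 1119 of them, in 4 lists for 883, in 5 lists for 724 and in all 6 lists for 507. Just outside the rule lay 1843 regions with such an interval in 2 lists. Their median width was 1329 bp against 1388 bp for the 1119 regions just inside, and their mean summit number 3.46 against 3.82, so no gap separated the 2 sides. Over the 6 libraries the median summit number was 4 or more in 2597 regions and 6 or more in 240, with a highest value of 9. Of the 240, 197 lay at a promoter and 24 had no start within 2.5 kb.

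Merged over the lists, the regions were 815 to 3125 bp wide with a median of 1477 bp. The middle of the distribution was narrow, since the quartiles were 1297 and 1703 bp. Regions with intervals of 2 or 3 summits (21015) had a median width of 874 bp and those with 1 summit in every list (38490) 346 bp.

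Neighbouring summits in the intervals of 4 or more lay close to 260 bp apart. The median distance was 259, 257 and 260 bp in Sham 1, 2 and 3, and 261, 260 and 289 bp in UNx 1, 2 and 3. The 5 libraries other than UNx 3 thus fell within 4 bp of each other. In those 5, the quartiles ran from 214 to 217 bp and from 320 to 333 bp, and 63.1% to 66.4% of the distances were between 150 and 300 bp. Distances under 100 bp made up 0.383% to 0.646% in all 6 libraries. The spacing was not particular to intervals of many summits: in those of 2 or 3 the median was 254 to 262 bp in the same 5 libraries and 291 bp in UNx 3.

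**Figure D1:**
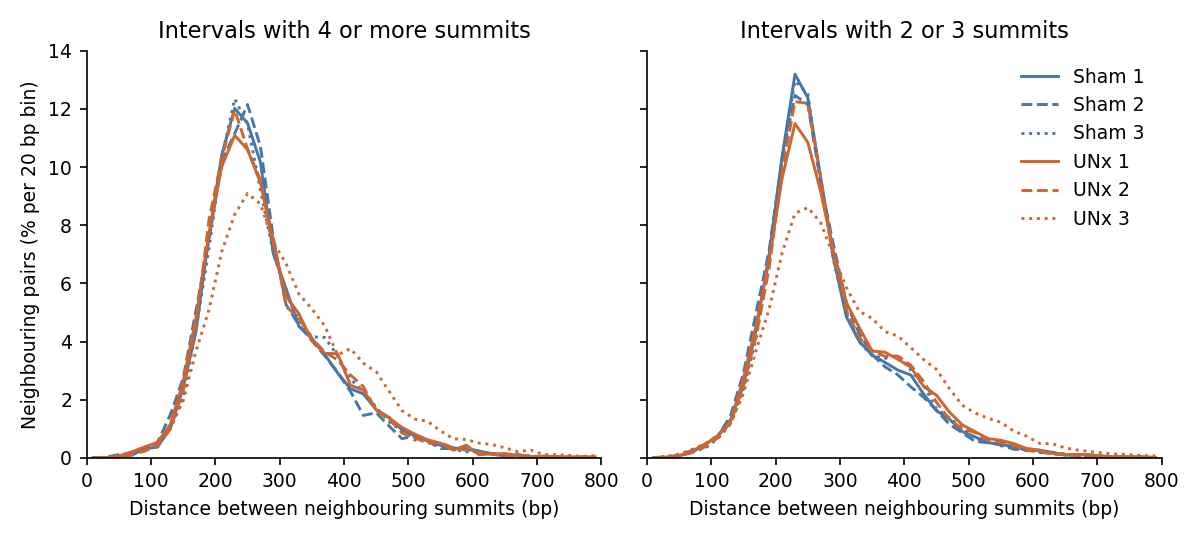
Distance in bp between neighbouring summits of 1 interval (x axis) against the share of neighbouring pairs in each 20 bp bin (y axis), for intervals of 4 or more summits (left) and of 2 or 3 (right), with 1 line per library. The lines rise to a single peak between 220 and 260 bp, and the UNx 3 line is lower and shifted to the right, with a median of 289 bp in the left panel.

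Intervals with many summits lay mostly at gene starts. The strongest summit was within 1 kb of an annotated start in 70.1%, 77.2% and 70.0% of the intervals of 4 or more summits in Sham 1, 2 and 3, and in 70.8%, 66.6% and 63.6% in UNx 1, 2 and 3. Among all other intervals of the same lists the share was 18.2% to 23.2%. The difference was 50.1 ± 2.98 percentage points (SD, n = 6) and had the same direction in 6 of 6 libraries (exact sign-flip test over libraries, two-sided, p = 0.03125, the smallest possible). The libraries share 1 genome and annotation, so the test covers the spread between libraries only. The share rose with each added summit in every library, from 12.6% to 16.5% for 1 summit to 74.1% to 89.7% for 6 or more.

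Most of that difference went with width. Among intervals of at least 1 kb, 65.7% to 80.4% of those with 4 or more summits and 54.2% to 75.8% of those with fewer were at a start, a difference of 9.58 ± 2.74 points (SD, n = 6; higher in 6 of 6 libraries; exact sign-flip test, p = 0.03125). With both kinds held to a width of 1.2 to 1.4 kb the difference was 4.70 points, with a range of 2.75 to 6.54 over the libraries (exact sign-flip test, p = 0.03125). Only the second comparison held the widths close. In the first, the intervals of fewer summits had a median width of 1091 to 1137 bp over the libraries. All intervals of 4 or more summits, before that limit, had 1175 to 1390 bp. These 2 comparisons were added after the data had been seen, and their tests too cover the spread between libraries only. With any 1 library left out, the exact test on 5 libraries cannot go below 0.0625, which it gave.

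**Figure D2:**
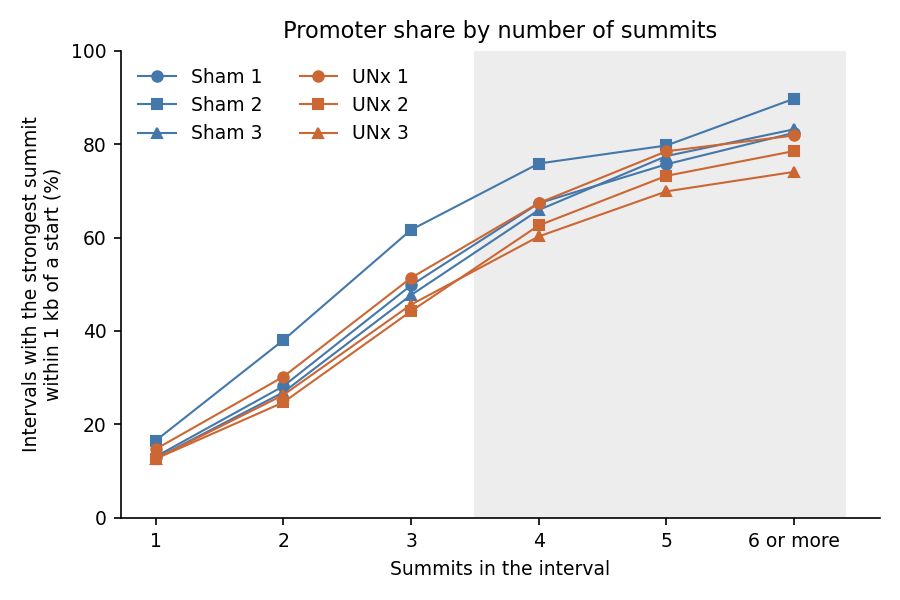
Share of intervals whose strongest summit lies within 1 kb of an annotated start (y axis, percent) by the number of summits in the interval (x axis), 1 line per library, with the intervals of 4 or more summits shaded. All 6 lines rise from 12.6% to 16.5% at 1 summit to 74.1% to 89.7% at 6 or more, and Sham 2, the shortest list, is the highest line.

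Counted by region, 2439 of the 3233 (75.4%) had their strongest summit at a promoter, 422 in an intron, 49 in an exon and 323 between genes. Of all 88438 regions in at least 3 lists, 20.3% were at a promoter. The start of a protein-coding gene lay inside 2339 of the regions. In 309 of the 3233 (9.56%) the starts of at least 2 coding genes lay together, against 1.24% of all regions. Among regions with a coding start inside, it was 309 of 2339, against 1099 of 12734 over all regions in at least 3 lists. The promoter regions were also wider than all promoter regions (median 1491 against 943 bp), and a comparison at equal width was not made. In 280 the genes ran on opposite strands, so that 1 stretch of open chromatin served a divergent pair or overlapping starts. A further 660 (20.4%) had no annotated start within 2.5 kb.

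Around coding starts the summits formed a row. In 2046 promoter regions with coding starts on 1 strand only, summits were most frequent in the 50 bp bin centred at -25 bp, with 0.305 summits per region and library (0.289 to 0.320 over the 6 libraries). They were least frequent near the start at 125 bp, with 0.0503 (0.0459 to 0.0543). Further maxima followed downstream at 225 bp (0.250) and at 425 bp (0.188), with a minimum of 0.101 at 325 bp between them. Upstream, a lower maximum lay at -325 bp (0.134). The downstream maxima were thus 200 bp apart at the resolution of the bins, and 41.9% of all summits of these regions lay upstream of the start. The lowest and highest library differed by less than the height of each of these maxima over its neighbouring minima. As a promoter has its strongest summit within 1 kb of a start by definition, summits near the start are partly a property of that choice.

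**Figure D3:**
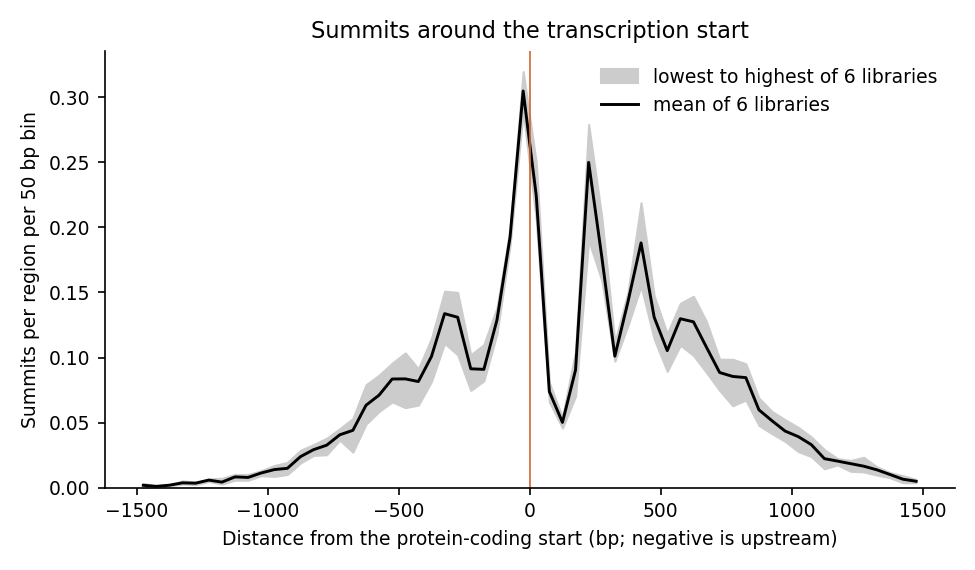
Number of summits per region in each 50 bp bin (y axis) by distance from the protein-coding start (x axis, bp, negative upstream) in 2046 promoter regions, with the mean of the 6 libraries as a line and their lowest to highest value as a band. The maxima at -25, 225 and 425 bp and the minimum at 125 bp are present in the mean and in the edges of the band.

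Within an interval the summits differed in strength. The median fold enrichment of the strongest summit over background, a ratio given by the authors, was 8.90 to 10.2 in the 6 libraries, and that of the weakest summit of the same interval was 2.96 to 3.14. The ratio of strongest to weakest had a median of 2.75 to 3.31. The strongest summit lay at either end of its row in 29.4% to 34.8% of the intervals, where summits in even order would put 44.1% to 46.9%. At promoters it was the summit nearest to the start in 53.0% to 57.3%, against 21.9% to 23.4% for an even order. Its median position over the 2046 promoter regions was -30.5 bp, with quartiles of -116 and 31 bp. A promoter is defined here by a strongest summit within 1 kb of a start, which favours a place near the start. An even order is therefore not a full reference at promoters, and the median position is partly a property of the definition.

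The same summits recurred between libraries. Of the summits of intervals of 4 or more in 1 library, a median of 79.0% (68.7% to 83.7% over 12 ordered pairs) had a summit within 50 bp in another library of the same operation, and a median of 76.3% (65.2% to 84.2% over 18 pairs) in a library of the other operation. These ranges overlap. The strongest summit fell within 100 bp of the same place in all 6 libraries in 1885 regions (58.3%).

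The promoters with the highest median summit numbers were those of Nr3c1, Ctbp2 and Ppargc1b. Nr3c1, the glucocorticoid receptor, had 9, 7 and 10 summits in Sham 1, 2 and 3 and 10, 9 and 9 in UNx 1, 2 and 3, in a region of 2834 bp at chr18:39488909-39491742. At the start of Ctbp2, a transcriptional corepressor, the Sham libraries had 9, 9 and 8 summits and the UNx libraries 10, 10 and 8 over 2972 bp at chr7:133121703-133124674, and an annotated start of Fgfr2 lay in the same region. Ppargc1b, a coactivator of genes for mitochondria, had 10, 6 and 9 against 8, 9 and 8 summits over 2528 bp at chr18:61398451-61400978. In each of these 3 the Sham and UNx values overlapped.

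Cebpa, a factor of metabolic gene expression, had 8, 6 and 10 against 8, 9 and 8 summits over 2714 bp at chr7:35118036-35120749, with sites at -1169, -936, -721, -95, 329, 847 and 1260 bp from the start, where a site is a place with a summit in at least 5 libraries. In Cebpa, 6 sites carried a summit in all 6 libraries. The row began more than 1 kb upstream of the start, where the average promoter profile above holds few summits. Further promoters with as many summits were Rtn4rl1, a relative of the Nogo receptor, Msl1, a subunit of a histone acetyltransferase complex, and Ppp2r3d, a regulatory subunit of protein phosphatase PP2A, each with a median of 8 summits.

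**Figure D4:**
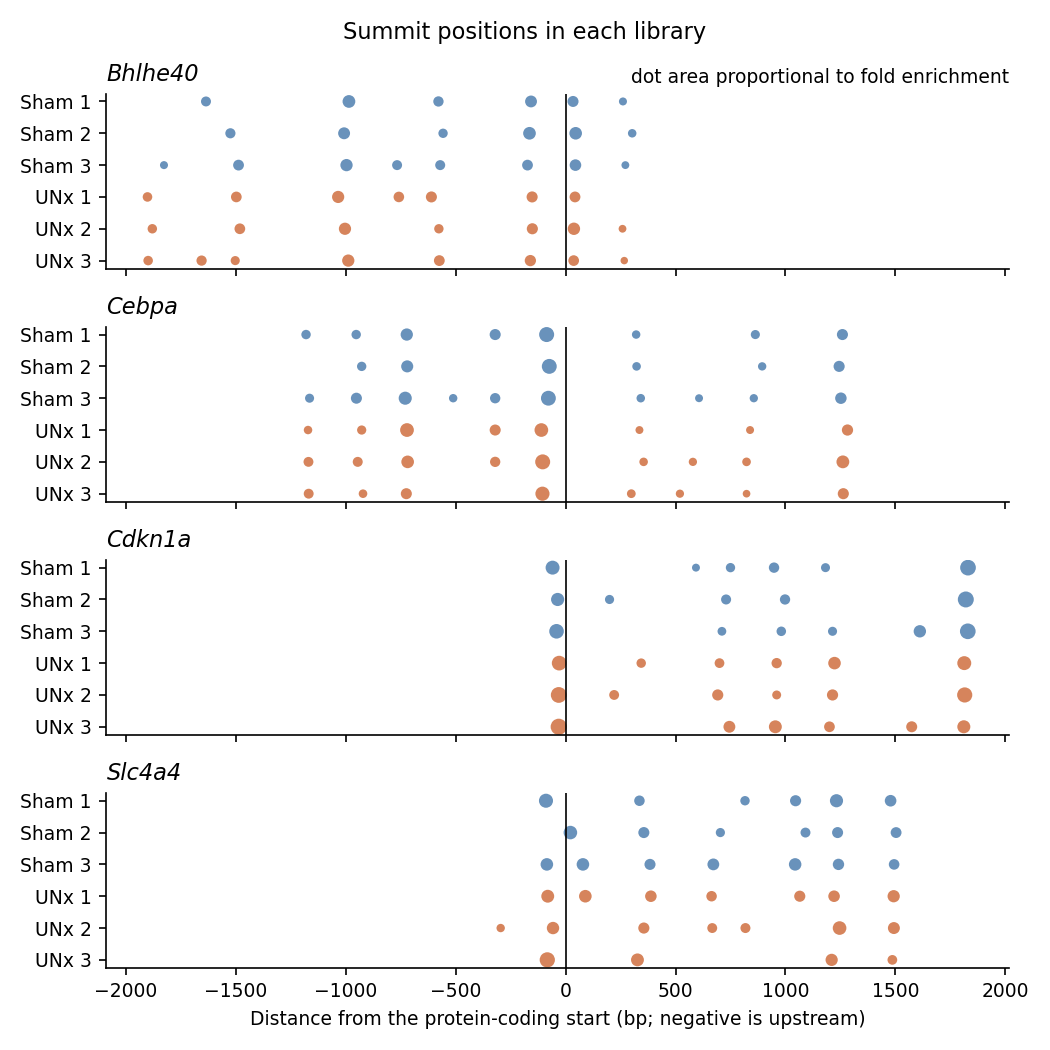
Summit positions (x axis, bp from the nearest protein-coding start, negative upstream) in each library (rows) for Bhlhe40, Cebpa, Cdkn1a and Slc4a4, with dot area proportional to the authors' fold enrichment. The dots form columns shared between libraries, such as the Cebpa column at -721 bp, and Cdkn1a and Slc4a4 extend mainly downstream of the start.

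Away from starts the highest median summit numbers were 8 near Slc45a1 and 7.5 near Gpx3 and Epb41l3. An intergenic region 55.835 kb from the start of Slc45a1, a sugar transporter gene, had 8, 5 and 9 summits in Sham and 8, 10 and 8 in UNx libraries over 2467 bp at chr4:150706320-150708786. The widest of all 3233 regions, 3125 bp at chr11:54910099-54913223, had 6, 7 and 7 summits in Sham and 9, 10 and 8 in UNx libraries, groups that did not overlap. It lies in an intron of Tnip1, and its nearest coding start, at 9.201 kb, is that of Gpx3, a glutathione peroxidase that proximal tubule cells secrete. A region in an intron of the noncoding gene Lncppara, 65.773 kb upstream of Ppara, the receptor that drives fatty acid oxidation, had 8, 5 and 9 against 6, 9 and 6 summits over 2603 bp at chr15:85669053-85671655. The other 3 lay near Epb41l3, a cytoskeletal protein gene, and Arhgap10, a GTPase activator gene, and in an intron of Celsr2, a cadherin gene, the last 2 with medians of 7 and 6.5 summits. Of the sites in these 6 regions, 1 to 4 per region carried a summit in all 6 libraries, against 4 to 6 in the 8 promoters. The median summit numbers were 6.5 to 8 in these 6 regions and 8 to 9 in the 8 promoters. The numbers of summits that could recur were therefore unequal.

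The promoter regions were rich in CpG and the others were not. Median GC content was 60.2% in the 3233 regions against 49.4% in all regions of at least 3 lists, and the ratio of observed to expected CpG was 0.696 against 0.233. Split by place, promoter regions with many summits had 62.2% GC and a CpG ratio of 0.750, near the 58.6% and 0.650 of all promoter regions. The 660 regions away from starts had 49.3% and 0.263, near the 47.9% and 0.200 of all regions away from starts. So most of the difference in composition went with the larger promoter share.

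Consensus strings were searched on both strands in the 100 bp on either side of the strongest summit, and they followed the same division. The GC box GGGCGG was found in 53.9% of the regions and in 15.7% of all regions of at least 3 lists, and at promoters in 66.7% against 50.3% of all promoter regions. The NRF1 string GCGCNTGCG was found at 10.5% of the promoters with many summits against 6.90% of all promoter regions, and the ETS string CCGGAAG at 12.6% against 10.5%. Strings of the factors that define the tubule epithelium were rare, the HNF4 string CAAAGTCCA being found in 0.588% of the regions against 2.40% and the HNF1 string GTTAATNAT in 1.39% against 3.03%. Away from starts the HNF1 string was found in 4.85% of the regions with many summits and in 3.63% of all regions there, the HNF4 string in 1.97% against 2.84%, and the AP-1 string TGANTCA in 7.73% against 8.45%. The GC box and the NRF1 string can overlap CpG-rich sequence of any kind, and these shares are descriptions with no test.

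Among the gene lists, the share of starts in the regions was highest in the lists of general regulators (52.8%) and of growth factor and mTOR signalling (52.5%), and the list of other cell types had none. A start of 2643 of 21924 protein-coding genes (12.1%) lay in the regions, or 20.3% of the 13024 genes whose start lay in any region of at least 3 lists. Of 40 genes of growth factor and mTOR signalling, 21 had a start there, among them Mtor, Rictor and Mlst8 of the mTOR complexes, Egfr, Met and Erbb3 among the receptors, and Cdkn1a. Cdkn1a, a brake on the cell cycle, had 6, 5 and 6 summits in Sham and 6, 6 and 6 in UNx libraries, with sites at -33, 720, 960, 1214 and 1817 bp. Of 36 general transcription and chromatin regulators, 19 had a start in the regions, among them the acetyltransferase gene Ep300 and the insulator factor Ctcf. Within this list Arid1b, a subunit of a nucleosome remodeller, and Sp3, a GC box factor, had the most summits, with medians of 7 and 6.5.

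Of 21 clock genes, 9 were found (Arntl, Clock, Npas2, Per3, Ciart, Bhlhe40, Nfil3, Rora and Tef), and Bhlhe40, a repressor in the clock, had 6, 6 and 8 summits in Sham and 7, 7 and 8 in UNx libraries. Of 30 proximal tubule transcription factors, 9 were found, Nr3c1, Cebpa, Ppara, Vdr, Esrrg, Nfib, Tfeb, Usf1 and Usf2. Of 17 Krüppel-like factor genes 3 were found (Klf11, Klf12 and Klf13), and of 38 immediate early and stress-response genes 6 (Egr1, Myc, Socs3, Btg1, Ier5 and Cebpd). In the 2 latter lists, 15 of 17 and 35 of 38 genes had a start in a region of at least 3 lists. Of those, 20.0% and 17.1% had a start in a region with many summits, near the 20.3% of all such coding genes.

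The transport genes that define the segment had many summits at their starts about as often as other open genes. Of 44 S1 genes, 43 had a start in a region of at least 3 lists and 9 in a region with many summits (Amn, Anpep, Cyp27b1, Mme, Slc34a3, Slc3a1, Slc4a4, Slc5a12 and Slc7a9). That is 20.9% of those with an open start, against 20.3% of all such genes. Slc4a4, the sodium bicarbonate cotransporter of the basolateral membrane, had 6, 6 and 7 summits in Sham and 7, 7 and 4 in UNx libraries over 2183 bp at chr5:88886446-88888628. Cyp27b1, which activates vitamin D in this segment, had 5, 6 and 6 against 6, 8 and 7 summits over 2378 bp at chr10:127047992-127050369, and its strongest summit lay 1.712 kb into the gene.

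The labelled cell type was checked on the same lists. All 8 marker genes of the S1 segment had a start in a region of at least 3 lists, as did 4 of 6 for S2 and S3. Of 18 genes of other nephron segments and other cell types 7 did, among them Umod and Slc12a1 of the thick ascending limb, Nphs1 of podocytes and Cdh5 and Flt1 of endothelium, while 0 of 3 stromal and 0 of 3 immune genes did. None of the 18 had its start in a region with many summits. Of 18 injury genes 13 had an open start and only Sox4, a developmental transcription factor, lay in a region with many summits.

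The UNx lists had more intervals of 4 or more summits on average, with overlap between the groups. Their share was 3.21%, 2.09% and 4.08% in Sham 1, 2 and 3 and 3.42%, 5.31% and 4.06% in UNx 1, 2 and 3. The means differed by 1.14 points (two-sided exact permutation test, p = 0.3, where 0.1 is the smallest it can give). Without Sham 2 the difference was 0.620 points and without UNx 2, the list with the most such intervals, 0.617. Of the 1119 regions that met the rule in 3 lists, 128 met it in the 3 UNx lists, 26 in the 3 Sham lists and 965 in lists of both operations.

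Within the 3233 regions the mean number of summits was 4.29, 3.74 and 4.48 in Sham 1, 2 and 3 and 4.33, 4.74 and 4.14 in UNx 1, 2 and 3, so that the groups overlapped. The means were 4.17 ± 0.386 and 4.40 ± 0.307 (SD, 3 libraries each), a difference of 0.232 that was 0.0170 without Sham 2 and 0.0649 without UNx 2. Per kb of open interval the order was turned, with a mean of 3.29 in Sham and 3.18 in UNx libraries. UNx 3 alone was low with 2.84, and the other 5 libraries lay at 3.27 or more. Summit numbers chose the regions, and these values carry no test.

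In single regions, the lowest UNx summit number exceeded the highest Sham number in 129 (3.99%) and lay under the lowest Sham number in 30 (0.928%). Over all 88438 regions of at least 3 lists the shares were 3.35% and 1.04%, so the regions with many summits did not stand apart from that background. Per kb, the counts were 96 higher and 274 lower. With 1 library fewer, groups overlap less easily, and the counts became 159 higher and 93 lower without Sham 2 and 160 and 146 without UNx 2. They were 227 and 49 without Sham 1, 322 and 50 without Sham 3, 207 and 61 without UNx 1, and 259 and 45 without UNx 3. The counts per kb and with a library left out were not set against all 88438 regions. They are therefore not read as a result about the regions with many summits. The largest rises were in an intron of Fgl1, a hepatokine gene, with 1, 3 and 1 summits in Sham and 6, 6 and 5 in UNx libraries, and 4.094 kb from the start of Spaca6, a sperm protein gene, with 4, 4 and 5 against 8, 7 and 9. The largest falls were in an intron of Siae, which codes for a sialic acid esterase, with 7, 6 and 7 against 4, 5 and 3, and in an intron of Samd4, an RNA-binding protein gene, with 4, 4 and 4 against 2, 2 and 2. Fgl1 met the rule through the 3 UNx lists and Samd4 through the 3 Sham lists, so that their differences are part of how they were chosen. With summits of a −log10 q of at least 5 the Siae difference went from -2.67 to -0.67, and in the interval with the most summits the Spaca6 difference went from 3.67 to 1.67. The percentile ranks of these 4 regions were not called (limma, adjusted p 0.121 to 0.996).

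The strength of the regions was then compared, a measure the rule had not used directly. Rank and summit number both grow with signal, so a high rank is partly a property of the selection. Each region's best interval in a list was given a percentile rank by −log10 q, with 100 for the strongest. Ranks were taken among the 77355 strongest intervals of each list, the number in the shortest list. A region with none of these in a list had rank 0 there in the test. The 3233 regions ranked high in both operations, with a median rank of 85.1, 85.8 and 86.4 in Sham 1, 2 and 3 and 85.7, 84.8 and 87.1 in UNx 1, 2 and 3, against 48.4 over all 74767 regions tested. Of the 3233, limma called 8 higher (0.247%) and 8 lower (0.247%) in UNx at an adjusted p under 0.05. Over all regions tested, 0.436% were called higher and 0.353% lower, so in this comparison the 16 calls (0.495%) were not more frequent than the 0.789% among all regions. At an unadjusted p under 0.05 it was 468 of them (14.5%) against 18.6% of all.

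The calls depended on the libraries and on the ranking. Without Sham 1, 2 or 3 in turn 5, 8 and 3 of the 3233 regions were called, and without UNx 1, 2 or 3 it was 1, 10 and 3, each with 2 libraries in 1 group. Without Sham 1, 2 or 3 these were 0.155%, 0.247% and 0.0928%, against 0.103%, 0.134% and 0.0494% of all regions tested. Without UNx 1, 2 or 3 they were 0.0309%, 0.309% and 0.0928%, against 0.0433%, 0.533% and 0.0691%. Which of the 2 shares was larger thus depended on the libraries used. With ranks corrected for GC content none of the 3233 regions was called, and 0.00267% of all regions tested were. The adjusted p in limma was then 0.0775 to 0.157 for the 8 regions named next. Their differences stayed near those given below, at 40.2 for Ddit4 and 36.3 for Cntfr, for example. All 8 calls in the lower direction were promoters, and 2 of the 8 in the higher direction were. The rank difference had a median of -0.17 over the 2439 promoter regions and of 1.98 over the 660 away from starts. Of these 660, 63.9% were higher in UNx, against 49.9% of all regions tested. The latter include promoters and had a lower median rank (48.4 against 75.9). No share is given for all tested regions away from starts, so the 63.9% cannot be called particular to regions with many summits.

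The largest rise was 8.52 kb downstream of the start of Ddit4, whose product restrains mTOR complex 1 under stress, at chr10:59942455-59943979. Its percentile ranks were 54.9, 45.4 and 34.4 in Sham 1, 2 and 3 and 87.0, 86.4 and 86.0 in UNx 1, 2 and 3. Every UNx library lay above every Sham library, and the difference was 41.6 (limma, adjusted p = 0.0139; called in 8 of 15 alternatives). The region had 4 or 5 summits in each library, and its strongest summit is in the Ddit4 sequence above.

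In an intron of Cntfr, the receptor for ciliary neurotrophic factor, ranks were 45.3, 55.1 and 42.3 in Sham and 85.8, 88.5 and 81.1 in UNx libraries at chr4:41676422-41677675. The groups again lay apart, by 37.6 (limma, adjusted p = 0.0158), and this call was kept in 10 of 15 alternatives. An intronic region of Snx30, a sorting nexin gene, rose from a rank of 73.9 ± 5.32 to 92.4 ± 3.19 (SD, 3 libraries each; adjusted p = 0.0298 in limma, called in 3 of 15 alternatives). The promoter of Sh3tc2, which acts in endosome recycling, rose from 77.4 ± 5.90 to 94.9 ± 0.617 (SD, 3 libraries each; adjusted p = 0.0241 in limma, called in 7 of 15). The 4 other rises were near or in Adcy6, a cyclic AMP synthase, Pde4d, a cyclic AMP phosphodiesterase, Dab2ip, a Ras GTPase activator, and 2700062C07Rik, with differences of 11.6 to 17.5. None of the 8 regions that rose had more summits in UNx than in Sham libraries on average, and 3 had fewer. Among all 3233 regions 1711 had more and 940 fewer, and a difference from that background was not tested.

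The largest fall was at the promoter of Atp2a2, the calcium pump of the endoplasmic reticulum, at chr5:122501112-122502896. Its ranks were 95.6, 95.9 and 91.6 in Sham and 81.1, 65.0 and 78.5 in UNx libraries, without overlap, a difference of -19.5 (limma, adjusted p = 0.0298; called in 4 of 15 alternatives). Its summit number varied widely, with 4, 3 and 8 in Sham and 2, 7 and 5 in UNx libraries, although the DNA at its strongest summit is the GC-rich run printed above.

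The promoter of Pspc1, a paraspeckle protein gene, fell in rank from 92.3 ± 4.46 to 76.8 ± 3.06, that of Fuk, a fucose kinase gene, from 94.9 ± 1.36 to 82.1 ± 5.05, and that of Usp3, which removes ubiquitin from histones, from 96.1 ± 0.229 to 84.0 ± 1.86. These values are means ± SD of 3 libraries, the adjusted p in limma was 0.0362, 0.0364 and 0.0242, and the calls were kept in 2, 3 and 5 of 15 alternatives. Mlst8, a subunit of both mTOR complexes, was also called lower, from 94.7 ± 1.58 to 85.0 ± 0.950, with Krcc1, Cdkn2aip and Sorl1, a sorting receptor gene. Of the 8 regions that fell, 6 had more summits on average in UNx than in Sham libraries and 1 had fewer. Over all 3233 regions 1711 had more and 940 fewer, and a difference of the 8 from that background was not tested.

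**Figure D5:**
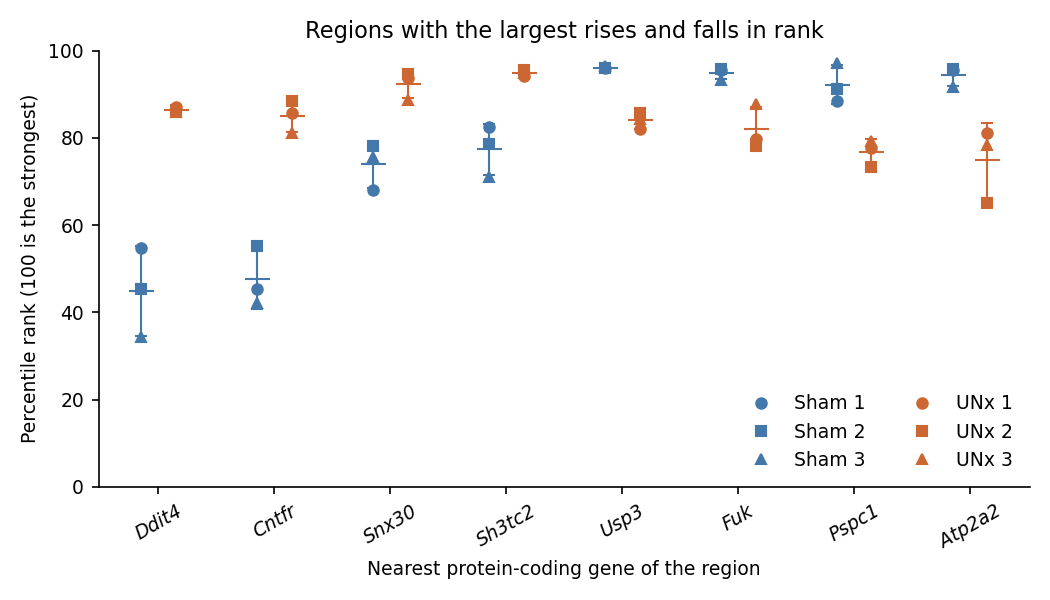
Percentile rank (y axis, 100 is the strongest) of the 4 largest rises and 4 largest falls among the called regions, by nearest protein-coding gene (x axis), with 1 point per library and bars for the mean ± SD of each group (n = 3). Ddit4 and Cntfr lie between 34.4 and 55.1 in Sham and above 81 in UNx libraries, and the 4 falls start from Sham ranks above 88.

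No region at Sox4, Npas2 or Cyp27b1 was called for rank. At Sox4 the summit numbers were 5, 5 and 5 in Sham and 6, 6 and 6 in UNx libraries, and the ranks 39.2, 54.0 and 53.2 against 69.2, 70.4 and 73.6 (limma, adjusted p = 0.101). At Npas2 the ranks were 45.5, 63.8 and 54.1 against 76.8, 73.5 and 80.8 (limma, adjusted p = 0.0800). At Cyp27b1 the ranks were 71.5, 56.3 and 77.9 in the Sham and 78.6, 87.7 and 79.8 in the UNx libraries (limma, adjusted p = 0.193). Away from starts, the region upstream of Ppara was at 58.2, 53.2 and 51.8 against 73.8, 63.1 and 78.5 (limma, adjusted p = 0.156).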

How the data were processed

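ATAC-seq was done on 3 Sham and 3 UNx libraries of S1 proximal tubules. Per the submitters' processing notes, reads were processed with cutadapt 3.4, Bowtie, SAMtools, Picard and MACS2 2.2.7.1 on mm10. The authors deposited 1 peak list per library, with interval and summit positions, and for each summit a fold enrichment (a ratio), −log10 p and −log10 q values and a display score. Their thresholds are not given in the sources used here, and −log10 q grows with depth, so values were compared as ranks within a list. Starts came from GENCODE M21 (basic), sequence from RefSeq GRCm38.p6. Percentile ranks were tested in limma 3.58.1 (R 4.3.3; trend, robust variance, two-sided, Benjamini-Hochberg adjustment, 0.05) over 74767 regions in at least 3 lists, and the step was tested on simulated ranks. Shares were compared by exact tests. Promoter means a strongest summit within 1 kb of a start. Named regions were the 8 promoters and 6 regions without a start within 2.5 kb that had the most summits, the 4 largest called rank rises and falls, the 2 genes with the most summits in each of 9 lists (263 genes, 1 unmatched), and the 2 largest rises and falls in summit number; other genes are members of those lists or called regions. The regions, gene lists and strings were chosen with earlier results of these data known. Alternatives covered thresholds, ranking, the replicate number as a block and each library left out. Some regions and genes that this rule or the lists select are not reported here.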

Additional observations from a re-analysis of the deposited data

How the results depend on the processing

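The rule kept 10553 regions with 3 or more summits, 810 with 5 or more, 5076 with at least 2 lists and 507 with all 6 lists. The stricter −log10 q, the strongest intervals of each list and a reciprocal overlap moved it by less than 1.5 times, and leaving out 1 library gave 2383 to 3044. The promoter difference kept its direction under all alternatives. It was 6.31 points against intervals of fewer summits and 1 kb or more, and 49.3 to 51.0 with 1 library left out, where the exact test cannot go below 0.0625. The difference in the share of intervals between UNx and Sham kept its sign in every alternative (0.465 to 2.34 points; 0.617 to 1.62 with 1 library left out). Summits per region went from 0.232 to -0.120 per kb of interval; the cause was not tested.

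The number of regions called for rank changed most: 2 with ranks among all deposited intervals, 38 with normal scores, 0 with ranking by fold enrichment, 0 when regions of any number of lists were tested, 1 without trend or robust variance, 0 with GC-corrected ranks and 1 to 10 with 1 library left out; the cause was not tested. With ranks among all deposited intervals, 0.0619% of the regions with many summits and 0.0249% of all regions tested were called. With normal scores it was 1.18% against 2.11%, and without trend or robust variance 0.0309% against 0.679%. No alternative turned the direction of the 8 named rank differences, which were called in 42 of 120 repeats. Same-numbered libraries did not deviate together (correlations 0.00807, -0.100 and -0.0495), and the numbers only name them. A block on the replicate number left 4 regions called (0.124%, against 0.0789% of all regions tested). Together with GC-corrected ranks it left 0, also among all regions tested. With the block, the difference in the share of intervals stayed at 1.14 points (exact sign-flip test, p = 0.5). Without read counts, no interval for depth can be given.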

Other observations

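The regions with many summits were spread over the chromosomes much as open regions in general. They made up 3.29% (chromosome 9) to 4.33% (chromosome 17) of the regions in at least 3 lists on each autosome and 3.36% on chromosome X, with 0 of 8 on chromosome Y. Repeats covered a median of 7.35% of their bases against 9.36% in all regions of at least 3 lists.

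Some of the rows were broken in single libraries. A region held more than 1 interval in 7.76% of the 3233 in UNx 3, in 36.0% in Sham 2 and in values between these in the other 4 libraries. The shortest list had the most broken rows and UNx 3, the library with the widest intervals, the fewest. UNx 3 also had 7642 intervals of at least 1 kb with fewer than 4 summits, against 1675 to 3765 in the other libraries.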
